A study of Saccharomyces cerevisiae with 2 samples.

Results

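The Hsp90 genes HSP82 and HSC82, the Hsp90 co-chaperone genes STI1 and CPR6, the J-domain protein genes YDJ1 and SIS1, the disaggregase genes HSP104 and HSP78 and the mitochondrial chaperonin genes HSP60 and HSP10 were examined in fermenting yeast with and without Cdc55p. These 10 genes were chosen by name, as the mRNA features of the deposited table that carry these symbols, out of 5995 mRNA features and 6420 features in all. All 10 were found, and all 10 passed the minimum for the features called tested here, a normalized count averaging 50 or more. The choice was made with earlier results of these libraries known.

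BY4741 is a haploid laboratory strain of Saccharomyces cerevisiae derived from S288C. Cells of genotype cdc55 (cdc55Δ), which lack the B55-type regulatory subunit of protein phosphatase 2A, and cells of genotype WT, both in the BY4741 background, stood for 6 h at 30 °C in static YPD20 cultures, a rich medium with 20% glucose. RNA-seq was performed on 1 library per strain, after rRNA depletion, so no difference has a replicate check and every comparison is of these libraries. No p-value is given, and the printed intervals cover counting error only.

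The counts summed to 30133454 in cdc55Δ and 33233285 in WT, and mRNA features held 81.6% of them in cdc55Δ and 80.6% in WT. CDC55 had 1 count in cdc55Δ and 2614 in WT, a ratio of WT over cdc55Δ of 2326 (95% counting interval 417 to 91905). URA3, LEU2 and MET17, which BY4741 lacks, had at most 2 counts in either library. HIS3, of which BY4741 lacks only a part, had 1275 counts in cdc55Δ and 1624 in WT. STE2, the receptor gene of mating type a cells, had 16145 counts in cdc55Δ and 24905 in WT, against 62 in cdc55Δ and 82 in WT for STE3, the receptor gene of the other mating type. Of the 10 strain and mating genes looked at, 5 were tested and MFA1 and MFA2, which encode a-factor, were past 1.5-fold, both lower in cdc55Δ. RNA was taken from whole cultures, so fewer cells with a transcript and less of it per cell cannot be told apart.

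Molecular chaperones bind proteins that are not, or no longer, folded. Hsp70 and its J-domain partners act early on such clients, Hsp90 receives part of them from Hsp70 through adaptor proteins, Hsp104 in the cytosol and Hsp78 in the mitochondrial matrix pull proteins out of aggregates, and Hsp60 with its lid Hsp10 encloses proteins imported into mitochondria. In yeast, transcription of many of these genes depends on the heat shock factor Hsf1p, which binds heat shock elements (HSEs) made of inverted GAA units. The general stress factors Msn2p and Msn4p (Msn2/4p), on which the study of cdc55Δ centred, bind the stress response element (STRE), AGGGG. The comparison here asks how these chaperone genes stood beside genes listed as Msn2/4p targets when Cdc55p was lost.

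The DNA before the 10 genes is shown for its matches to the elements of Hsf1p and of Msn2/4p, which 3 of the 10 genes have together. Each stretch was read from the R64 assembly of S288C, 5′ to 3′ on the strand of its gene, and the capitals mark matches to 3 motif kinds. These are the 2-unit HSE, GAANNTTC or TTCNNGAA, the 3-unit HSE, GAANNTTCNNGAA or TTCNNGAANNTTC, and the STRE, AGGGG or CCCCT on the printed strand. The HSE motifs were thereby searched on both strands as well. A 3-unit HSE contains 2-unit HSEs, and an HSE that ends in GAA can share its last A with an STRE. For HSP82, HSC82 and HSP60 the stretch leaves out a 2-unit HSE nearer the start, at -67, -48 and -44. For HSP82 it also leaves out an STRE farther from the start, at -396. The first stretches belong to the 3 genes with an STRE, at chrXVI:98760-98870 (minus strand) for HSP82, chrXII:88311-88465 (plus strand) for HSP104 and chrIV:974359-974500 (minus strand) for HSP78.
HSP82: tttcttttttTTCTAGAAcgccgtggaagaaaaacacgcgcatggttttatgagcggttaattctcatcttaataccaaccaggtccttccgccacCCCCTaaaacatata
HSP104: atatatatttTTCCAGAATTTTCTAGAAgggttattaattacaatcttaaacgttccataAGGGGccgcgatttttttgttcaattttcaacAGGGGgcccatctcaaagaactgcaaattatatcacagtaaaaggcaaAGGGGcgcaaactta
HSP78: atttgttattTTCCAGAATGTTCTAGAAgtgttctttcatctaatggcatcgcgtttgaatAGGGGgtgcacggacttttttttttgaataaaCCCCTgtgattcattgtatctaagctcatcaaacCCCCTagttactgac

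The other stretches show the HSEs of genes without an STRE, at chrXIII:632128-632187 (plus) for HSC82, chrXV:380801-380859 (plus) for STI1, chrXII:573303-573359 (minus) for CPR6, chrXIV:507415-507442 (minus) for YDJ1, chrXIV:619877-619919 (minus) for SIS1, chrXII:665190-665222 (minus) for HSP60 and chrXV:370982-371014 (minus) for HSP10.
HSC82: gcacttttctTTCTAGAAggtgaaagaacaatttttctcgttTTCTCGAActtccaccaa
STI1: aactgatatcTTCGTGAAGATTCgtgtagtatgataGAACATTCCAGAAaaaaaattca
CPR6: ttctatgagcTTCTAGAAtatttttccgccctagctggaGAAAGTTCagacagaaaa
YDJ1: tcatttctttTTCAAGAAatgaaaaggc
SIS1: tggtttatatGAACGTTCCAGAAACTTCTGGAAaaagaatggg
HSP60: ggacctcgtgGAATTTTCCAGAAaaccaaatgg
HSP10: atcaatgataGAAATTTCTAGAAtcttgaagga

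Within the 500 bases before the annotated start, all 10 genes had a 2-unit HSE, which 35.2% of 6000 protein-coding genes had. A 3-unit HSE was present before 6 of the 10, STI1, SIS1, HSP104, HSP78, HSP60 and HSP10, and before 1.48% of the protein-coding genes. An STRE was present before 3 of the 10 and before 34.1% of the protein-coding genes. HSP104 and HSP78 had 3 STREs each beside their HSEs, and HSP82 had 2. The other 7 genes had none in this window. In the shorter window, from 250 bases before to 50 bases after the start, 7, 4 and 3 of the 10 had a 2-unit HSE, a 3-unit HSE and an STRE, against 22.6%, 0.783% and 21.6% of 6001 genes. The HSEs of SIS1, YDJ1 and HSP104 lay outside the shorter window. A match is a description of the letters and does not show binding.

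**Figure D1:**
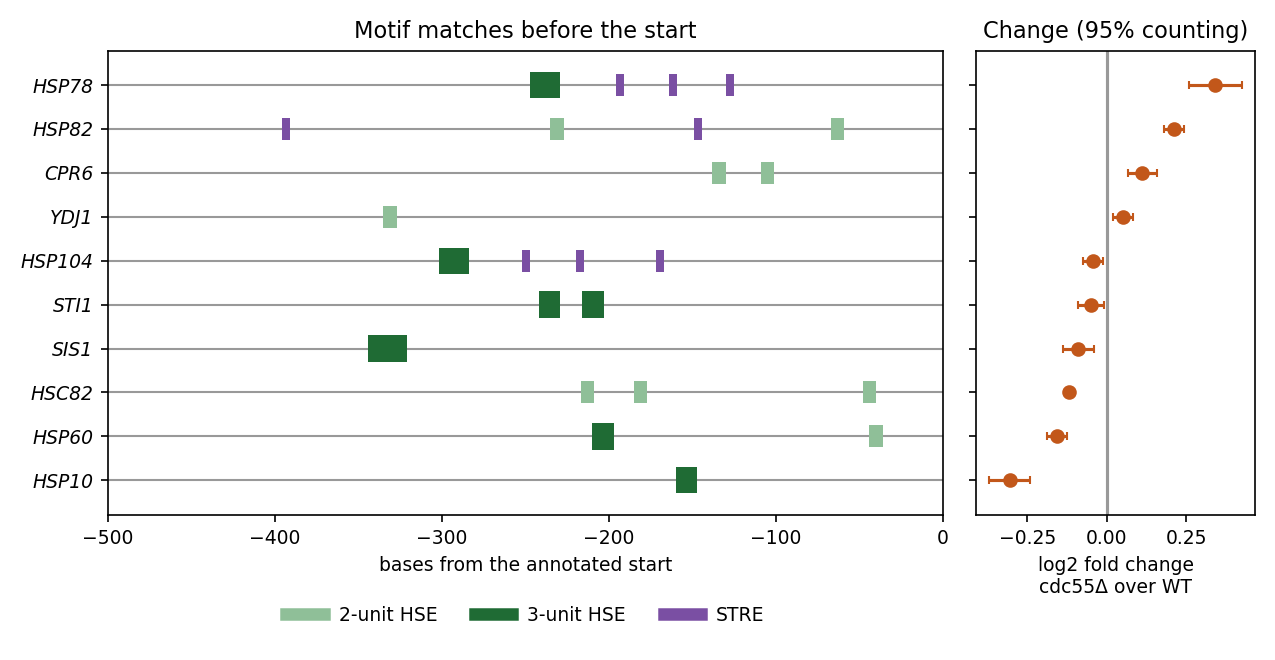
Motif matches in the 500 bases before the annotated start of each gene (left, horizontal axis in bases from the start), with the log2 fold change of cdc55Δ over WT and its 95% counting interval (right). Genes run from the highest change, HSP78 at 0.34, to the lowest, HSP10 at -0.31, and STREs appear before HSP78, HSP82 and HSP104.

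None of the 10 genes differed by 1.5-fold between the libraries. Among the 5705 features tested, cdc55Δ was higher by 1.5-fold or more for 5.19% and lower by as much for 2.96%, so a count of 0 among 10 genes is near what those shares give. The log2 fold changes of cdc55Δ over WT, from counts scaled by TMM with 0.5 added to each count, lay between -0.31 for HSP10 and 0.34 for HSP78, and 79.9% of all features tested lay in the same range. The median was -0.05 over the 10 genes and 0.00 over all features tested. Of the 10, 4 were higher and 6 lower in cdc55Δ, and with TMM scaling the counting interval lay on 1 side of 0 in each case. The intervals leave out the choice of scaling, which took YDJ1 from 0.05 to 0.01 with upper-quartile scaling. The read counts are deep, so an interval that leaves out 0 says little about a second culture. The 10 genes together took 0.721% of the mRNA counts in cdc55Δ and 0.774% in WT.

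Hsp90 is encoded by HSC82, the isoform that is abundant without stress, and HSP82, the isoform that is more strongly induced by heat. HSC82 (YMR186W, chromosome XIII from 632355 to 634472, plus strand) had 87906 counts in cdc55Δ and 107376 in WT, or 1377 RPKM in cdc55Δ and 1525 RPKM in WT. Its log2 fold change was -0.12 (95% interval -0.13 to -0.11). HSP82 (YPL240C, chromosome XVI from 96496 to 98625, minus strand) had 16034 counts in cdc55Δ and 15554 in WT, or 250 RPKM in cdc55Δ and 220 RPKM in WT. Its log2 fold change was 0.21 (0.18 to 0.24), so the isoforms lay on opposite sides of 0. HSP82 accounted for 15.4% of the Hsp90 counts in cdc55Δ (Clopper-Pearson interval 15.2 to 15.6) and 12.7% in WT (12.5 to 12.8). This share does not depend on how the libraries are scaled. The summed Hsp90 counts had a log2 fold change of -0.07. Per length, HSC82 was 5.51 times as abundant as HSP82 in cdc55Δ and 6.94 times in WT.

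The coding sequences of HSP82 and HSC82 are 92.4% identical over 2115 aligned bases, with a longest identical run of 113 bases. Reads of 1 gene could therefore be counted for the other. Of the 100-base stretches of each gene, 14 occur elsewhere in the genome, which is 0.689% for HSP82 and 0.693% for HSC82, and of the 50-base stretches 133 do. The other 8 genes share no such stretch of either length, and no annotated gene overlaps any of the 10.

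Sti1p passes clients from Hsp70 to Hsp90, and Cpr6p is a peptidyl-prolyl isomerase that binds Hsp90. STI1 (YOR027W, chromosome XV from 381053 to 382822) had 8723 counts in cdc55Δ and 10146 in WT, or 164 RPKM in cdc55Δ and 172 RPKM in WT, a log2 fold change of -0.05 (-0.09 to -0.01). CPR6 (YLR216C, chromosome XII from 572096 to 573211) had 7535 counts in cdc55Δ and 7838 in WT, or 224 RPKM in cdc55Δ and 211 RPKM in WT, a log2 fold change of 0.11 (0.07 to 0.16). The 10 other Hsp90 co-chaperone genes examined were likewise all under 1.5-fold, with a median of 0.03. They ranged from -0.15 for TAH1, of the R2TP complex, to 0.47 for SBA1, the yeast p23, which stabilizes the closed form of Hsp90. SBA1 had 8850 counts in cdc55Δ and 7200 in WT, and its log2 fold change was above the 0.34 of HSP78.

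Ydj1p and Sis1p are the main J-domain partners of cytosolic Hsp70, and Sis1p is the one needed with Hsp104 to propagate yeast prions. YDJ1 (YNL064C, chromosome XIV from 505868 to 507097) had 15077 counts in cdc55Δ and 16344 in WT, or 407 RPKM in cdc55Δ and 400 RPKM in WT, a log2 fold change of 0.05 (0.02 to 0.08). The ratio of the deposited TPM values gave YDJ1 a log2 fold change of 0.00. SIS1 (YNL007C, chromosome XIV from 618507 to 619565) had 6058 counts in cdc55Δ and 7245 in WT, or 190 RPKM in cdc55Δ and 206 RPKM in WT, a log2 fold change of -0.09 (-0.14 to -0.04). The stretch printed for SIS1 holds 3 overlapping 3-unit HSEs, the most of the 10 genes. All 10 other J-domain genes examined were under 1.5-fold, from -0.18 for JJJ2 to 0.19 for CAJ1.

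Hsp104p and Hsp78p are related ATPases of the ClpB kind. HSP104 (YLL026W, chromosome XII from 88623 to 91349) had 15778 counts in cdc55Δ and 18270 in WT, or 192 RPKM in cdc55Δ and 202 RPKM in WT, a log2 fold change of -0.04 (-0.07 to -0.01). HSP78 (YDR258C, chromosome IV from 971808 to 974243) had 2450 counts in cdc55Δ and 2171 in WT, or 33.4 RPKM in cdc55Δ and 26.8 RPKM in WT. Its log2 fold change of 0.34 (0.26 to 0.43) was the highest of the 10, at percentile 89.2 of all features tested. HSP104 stood at percentile 41.1, and both genes have 3 STREs and 2 overlapping 3-unit HSEs in the 500 bases before the start. HSP78 took 13.4% of the counts of the 2 genes in cdc55Δ (12.9 to 13.9) and 10.6% in WT (10.2 to 11.1).

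Hsp104p works with Hsp70, its nucleotide exchange factors and small heat shock proteins. Of 9 such genes, 3 were at least 1.5-fold higher in cdc55Δ and none was 1.5-fold lower, with a median of 0.18. Among all features tested, 5.19% were at least 1.5-fold higher and 2.96% lower. SSE2, an Hsp110 gene, had 3789 counts in cdc55Δ and 2450 in WT, a log2 fold change of 0.80 (0.72 to 0.87). HSP42, which encodes a small heat shock protein that gathers misfolded proteins, had 1806 counts in cdc55Δ and 1182 in WT, a log2 fold change of 0.78 (0.67 to 0.89). HSP26, the other small heat shock protein gene among these 9, was at 0.59. That is past 1.5-fold under 4 of 6 scalings and short of it with library size only or upper-quartile scaling. SSA4, a stress-induced Hsp70 gene, was lowest at -0.28.

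In the mitochondrial matrix, Hsp60p forms the folding chamber and Hsp10p its lid. HSP60 (YLR259C, chromosome XII from 663284 to 665002) had 14311 counts in cdc55Δ and 17925 in WT, or 276 RPKM in cdc55Δ and 314 RPKM in WT, a log2 fold change of -0.16 (-0.19 to -0.12). HSP10 (YOR020C, chromosome XV from 370524 to 370844) had 3362 counts in cdc55Δ and 4673 in WT, or 348 RPKM in cdc55Δ and 438 RPKM in WT. Its log2 fold change of -0.31 (-0.37 to -0.24) was the lowest of the 10, at percentile 9.29 of all features tested. HSP60 and HSP10 thus had the lowest log2 fold changes of the set, and their summed counts had a log2 fold change of -0.19 (-0.21 to -0.16). HSP10 is short, at 321 bases, and its level per length was 1.26 times that of HSP60 in cdc55Δ and 1.40 times in WT. HSP78, which acts in the same compartment, lay on the other side of 0.

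Other genes of mitochondrial folding and proteolysis differed little. None of 8 was past 1.5-fold, the median was 0.02, and values ranged from -0.13 for ECM10, an Hsp70 gene, to 0.21 for PIM1, which encodes the Lon protease. The cytosolic chaperonin TRiC/CCT, which folds actin and tubulin, had all 8 subunit genes between 0.00 for CCT5 and 0.14 for CCT8, with a median of 0.08, none past 1.5-fold. The 6 genes of prefoldin, which hands clients to TRiC/CCT, had a median of -0.14, from -0.30 for GIM5 to 0.12 for PFD1, also none past 1.5-fold.

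**Figure D2:**
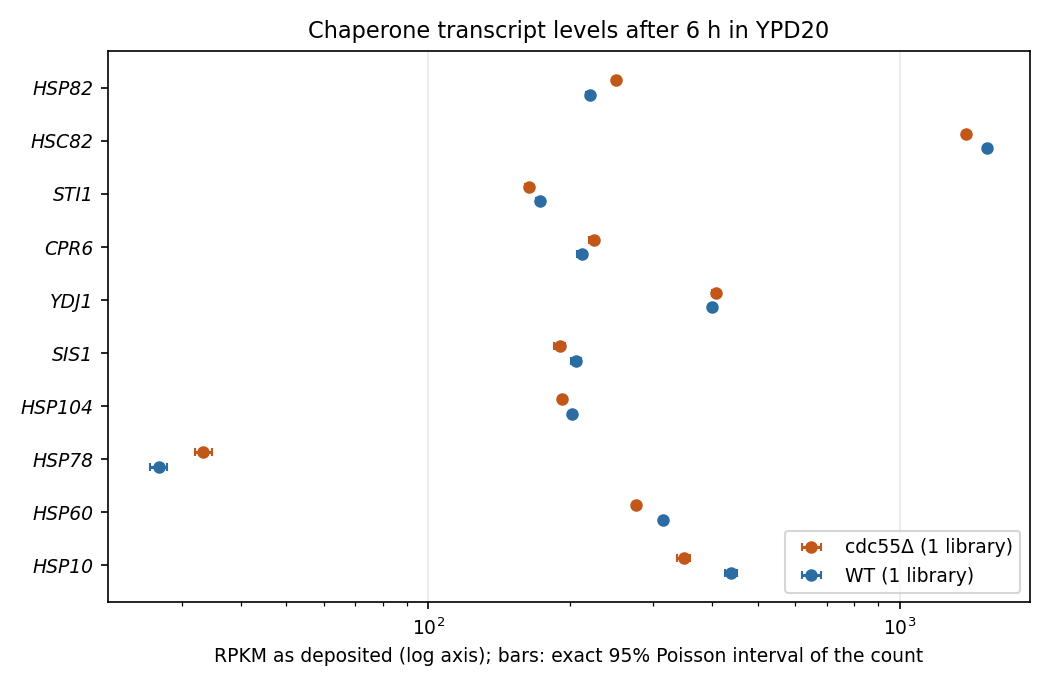
Deposited RPKM (log axis) of each of the 10 genes in the cdc55Δ library (orange, upper point) and the WT library (blue, lower point), with exact 95% Poisson intervals of the counts. HSC82 lies highest, at 1377 in cdc55Δ and 1525 in WT, and HSP78 lowest, at 33.4 in cdc55Δ and 26.8 in WT.

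Per length, the genes kept nearly the same order of levels in the libraries. In RPKM, HSC82 was the most abundant in each. HSP78 was the least abundant, at percentile 47.0 of tested mRNAs in cdc55Δ and 38.1 in WT. The median of tested mRNAs was 36.0 RPKM in cdc55Δ and 35.9 in WT. The other 9 genes stood at percentile 87.4 or above among tested mRNAs in cdc55Δ and at 88.3 or above in WT. YDJ1, HSP10, HSP60, HSP82 and CPR6 followed HSC82 in cdc55Δ, whereas HSP10 preceded YDJ1 in WT. Below CPR6, HSP104 and SIS1 could not be ranked within counting error in cdc55Δ, nor could CPR6 from SIS1 or SIS1 from HSP104 in WT. STI1 was ninth in each library. HSF1 itself, at 2088 counts in cdc55Δ and 2458 in WT, had a log2 fold change of -0.07 (-0.15 to 0.02).

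The 10 genes were then set beside 10 other genes commonly listed as Hsf1p targets and 20 listed as Msn2/4p targets. Of the other Hsf1p targets, SSA1, SSA2, HSP42, FES1, MDJ1, AHA1 and HCH1 also belong to lists given above. Those lists are therefore not independent of this one. The other Hsf1p targets had a median log2 fold change of 0.10, with 1 gene at least 1.5-fold higher (HSP42, 0.78) and 1 at least 1.5-fold lower in cdc55Δ. The lower one was BTN2, which encodes a protein-sorting factor and had 538 counts in cdc55Δ and 937 in WT, a log2 fold change of -0.63 (-0.79 to -0.48). Of these 10 genes, 6 lay within the range of the chaperone genes. SSA1 and SSA2, paralogous Hsp70 genes, lay on opposite sides of 0, as HSP82 and HSC82 did, with log2 fold changes of 0.43 and -0.14, though reads could be split between such close copies.

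Of the Msn2/4p targets, 19 had enough counts to be tested, 17 were at least 1.5-fold higher in cdc55Δ and none was lower. Their median log2 fold change was 1.32, and the lowest of them, GRE3 at 0.51, was above the highest of the chaperone genes, HSP78 at 0.34. HSP12, which encodes a membrane-associated small heat shock protein, was the highest at 3.17. Most of these genes, such as HSP12, CTT1 and TPS2, are among those the study called higher in cdc55Δ from these same libraries. The number past 1.5-fold, the median and the gap to the chaperone genes are therefore not independent evidence. The gap also depends on how the lists were drawn. HSP104 at -0.04 and HSP78 at 0.34, with 3 STREs each within 500 bases of the start, were placed among the chaperone genes and not in this list. Whether Msn2/4p acts on them was not tested. All 20 Msn2/4p targets had an STRE within 500 bases of the start and 2 had a 3-unit HSE. Among the 10 other Hsf1p targets 4 had an STRE and 6 had a 3-unit HSE. In the window from 250 bases before to 50 bases after the start, 14 of the 20 Msn2/4p targets had an STRE and 0 a 3-unit HSE. In that window 4 of the 10 other Hsf1p targets had an STRE and 3 a 3-unit HSE.

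**Figure D3:**
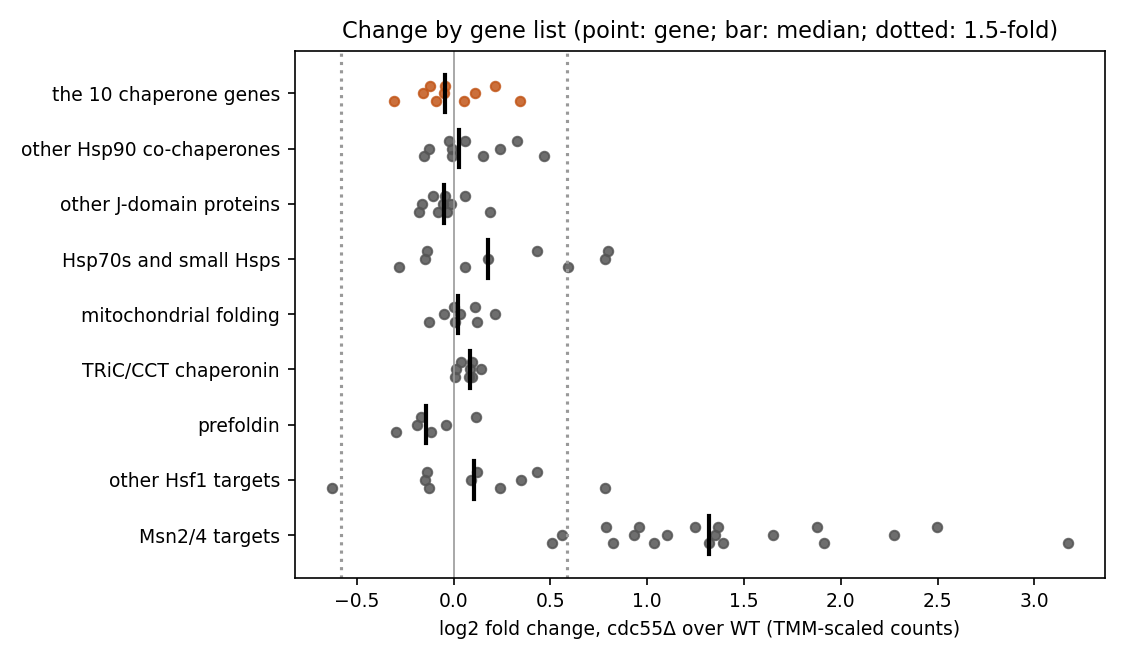
Log2 fold change of cdc55Δ over WT for each tested gene (points) by list, with the list median (black bar) and dotted lines at 1.5-fold in either direction. Some genes belong to several lists. The 10 chaperone genes all lie between the dotted lines with a median of -0.05, while 17 of 19 Msn2/4p targets lie to the right of them. Most of these targets were called higher by the study from these same libraries.

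**Figure D4:**
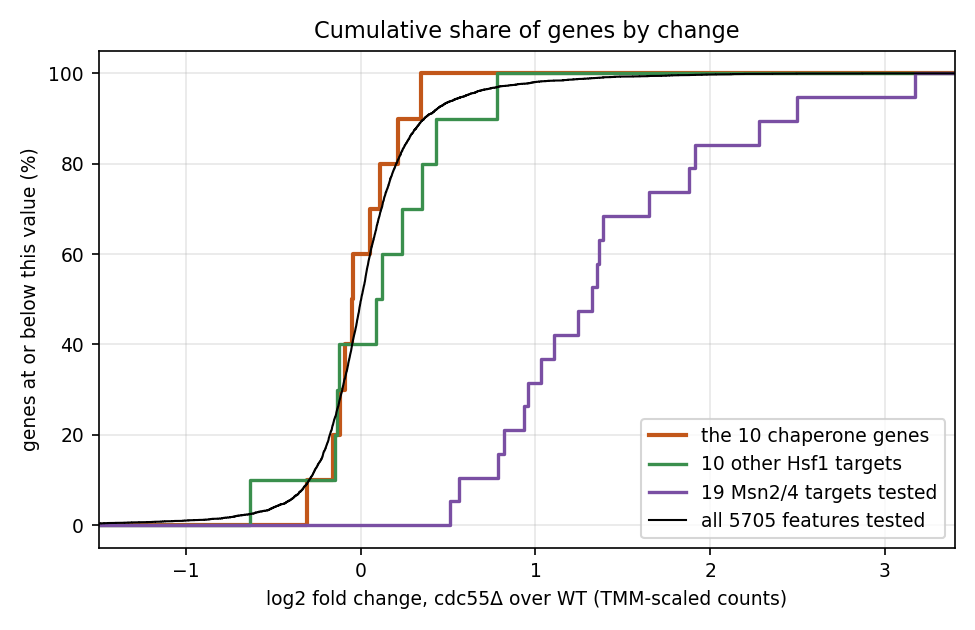
Cumulative share of genes (vertical axis, percent) at or below each log2 fold change of cdc55Δ over WT (horizontal axis). The curve of the 10 chaperone genes runs close to that of all 5705 features tested. The curve of the 19 Msn2/4p targets, most of them called higher by the study from these same libraries, begins at 0.51, right of the last chaperone gene. HSP82, HSP104 and HSP78, which have STREs, are drawn with the chaperone genes.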

How the data were processed

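Per the labels and the study's methods, RNA-seq libraries of cdc55Δ and WT cells, 1 each, were mapped by the authors to the S288C genome with HISAT2 after Cutadapt, and featureCounts is named in the submitters' processing notes. The strand setting and the treatment of reads with several sites are not given in the sources used here. The authors deposited whole-number counts per feature without normalization, RPKM values (scaled by length and library total) and TPM values with the same sum in each library.

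From the counts, log2 fold changes were computed with TMM scaling (edgeR 4.0.16, R 4.3.3) and a prior count of 0.5, using pandas 2.3.3 and SciPy 1.17.1 under Python 3.11.15. With 1 library per strain, the quasi-likelihood model of edgeR could not be fitted. Intervals are 95% Clopper-Pearson intervals of a gene's share of reads or exact Poisson intervals of RPKM. They cover counting error only and treat reads as independent. PCR copies are not independent, so the intervals can be too narrow even for counting error. Tested features, whose normalized counts averaged 50 or more, were set against a threshold of 1.5-fold, without a p-value. The scripts were tested on simulated data. Features were matched by RefSeq accession to the R64 annotation, and all 10 genes had the R64 length. Motifs and shared stretches were searched in the R64 genome, and HSP82 was aligned to HSC82 with Biopython 1.88. The window of 500 bases was added after the data were seen.

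The genes and lists were chosen with earlier results of these data known. Named are the 10 genes, CDC55, HSF1, MSN2 and MSN4, and the highest and lowest tested gene of each list. SSA1, SSA2, HSP26 and the strain markers were named after their values were seen, as were genes named for their motifs. Alternatives were DESeq2 1.42.0 size factors, library size, upper-quartile and iterated DEGES scaling, TMM over mRNAs, other prior counts, count minimums and fold thresholds, and the deposited TPM values, added after the data were seen.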

Additional observations from a re-analysis of the deposited data

How the results depend on the processing

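Each of the 5 other scalings of the counts shifted every log2 fold change alike, by at most -0.04 (upper quartile in place of TMM). The deposited TPM values moved them further, HSP82 from 0.21 to 0.16. Under each of the 5 other scalings, 2 other prior counts and the deposited TPM values, all 10 chaperone genes kept their sign, YDJ1 at 0.00 with TPM, and none was past 1.5-fold. At a 2-fold threshold the counts of 0 higher and 0 lower stood too. The median of the 10 genes was -0.088 with upper-quartile scaling and -0.098 with the deposited TPM values, against -0.05. It moved less than the median counting error under the others, HSP82 and HSC82 left out included. The medians of the other Hsf1p targets and of the Msn2/4p targets moved less than theirs. At least 1.5-fold higher were 296 features and lower 169. At 2-fold these were 109 and 59, and 261 were at least 1.5-fold lower with a minimum mean of 10 and 353 with none, where more features of low counts enter. No paired analysis was possible because there is 1 library per strain, and a single pair leaves no residual degrees of freedom. For the same reason no library could be left out, and the spread between cultures was not measured.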

Other observations

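The motifs were also counted before all 5539 tested mRNA features that matched the R64 annotation, after the values of the chaperone genes had been seen. This is a description of these libraries, with no test, and neighbouring genes can share a window. Of 86 genes with a 3-unit HSE in the 500 bases before the start, 5 were at least 1.5-fold higher in cdc55Δ (5.81%) and 1 was lower (1.16%). These shares are near those of all 5539 genes, 5.07% higher and 2.69% lower. Their median log2 fold change was 0.00, as was that of all 5539 genes. The 80 of them outside the 10 chaperone genes had a median of 0.01. The 5 higher genes were HSP42, UBI4, GND2, TSL1 and YGP1, and each of them also had an STRE. UBI4, which encodes polyubiquitin, had 7516 counts in cdc55Δ and 4534 in WT. Among the 58 genes with a 3-unit HSE and no STRE, none was at least 1.5-fold higher and BTN2 was the only one at least 1.5-fold lower, with a median of -0.04. Among the 28 with both motifs, 5 were higher (17.9%) and none lower, with a median of 0.08. Of the 1850 genes with an STRE and no 3-unit HSE, 11.1% were higher and 2.22% lower, with a median of 0.07.

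The share of genes at least 1.5-fold higher in cdc55Δ was greater in each class with more STREs, where the last class pools genes with 3 or more. It was 1.91% of 3661 genes without an STRE, 7.55% of 1430 genes with 1, 17.8% of 342 genes with 2 and 39.6% of 106 genes with 3 or more. The medians were -0.02, 0.04, 0.18 and 0.42. The shares at least 1.5-fold lower were 2.95%, 2.59%, 1.17% and 0%. HSP104 and HSP78 are among the 106 genes, and of the 5 genes with 3 or more STREs and a 3-unit HSE, HSP42 and TSL1 were at least 1.5-fold higher, with HSP78 at 0.34, CUE4 at 0.07 and HSP104 at -0.04. HSP104 was thus the lowest of those 5, below the lower quartile of the 106, which was 0.09. MSN4 had a log2 fold change of 0.99 and MSN2 one of 0.17.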
